A study of Homo sapiens with 4 samples.

Results

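The genes described here are 10 components and transcriptional outputs of ERK signalling: the MAPK phosphatase genes DUSP4, DUSP5 and DUSP6, the Sprouty genes SPRY1, SPRY2 and SPRY4, the Spred genes SPRED1 and SPRED2, and the early growth response genes EGR1 and EGR3. They were chosen by symbol, and all 10 were found among 60617 gene entries. RNA-seq libraries had been made from SKNMC, an established human Ewing sarcoma cell line, after 24 h in 1 µM CBL0137 (n = 2) or in DMSO vehicle (n = 2). CBL0137, a drug candidate of the curaxin class, inserts into DNA and immobilises FACT, a histone chaperone, and the study compared the transcripts of treated cells with those of vehicle cells. The labels do not say whether replicate libraries were grown separately, so p-values measure only the spread between these libraries, which may be technical. All 4 libraries come from this single line.

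Growth factor receptors activate RAS, RAF, MEK and ERK in turn, and active ERK switches on genes that restrain the same pathway. DUSP6 and DUSP5 encode phosphatases that remove the activating phosphates from ERK in the cytoplasm and in the nucleus, and DUSP4 encodes a nuclear phosphatase of several MAP kinases. Sprouty and Spred proteins act upstream, between the receptors and RAF, and SPRED1 brings the RAS inhibitor neurofibromin to the membrane. EGR1 and EGR3 are zinc finger transcription factors. EGR1 is switched on within minutes of ERK activation, through serum response factor and its ETS-family partners.

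RefSeq promoter windows (GRCh38.p14, 250 bases before to 50 bases after a transcript start) were matched by symbol for 7 of the 10 genes (EGR1, DUSP6, SPRY1, SPRY2, SPRY4, SPRED1 and SPRED2), in 11 windows. A window each of EGR1 and SPRY2 is shown because these genes had the largest rise and the largest fall among the 8 that could be tested. Capitals mark a match, on either strand, to the CArG box bound by serum response factor (CC, then 6 bases of A or T, then GG) in EGR1 (chr5:138465229-138465528, plus strand) and to the EGR recognition sequence GCGGGGGCG in SPRY2 (chr13:80341077-80341376, minus strand).
EGR1: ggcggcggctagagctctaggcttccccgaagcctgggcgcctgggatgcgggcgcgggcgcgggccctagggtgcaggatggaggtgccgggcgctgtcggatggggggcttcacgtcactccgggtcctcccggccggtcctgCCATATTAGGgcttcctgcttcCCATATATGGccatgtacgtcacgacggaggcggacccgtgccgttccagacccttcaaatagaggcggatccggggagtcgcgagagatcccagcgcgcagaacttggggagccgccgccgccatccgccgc
SPRY2: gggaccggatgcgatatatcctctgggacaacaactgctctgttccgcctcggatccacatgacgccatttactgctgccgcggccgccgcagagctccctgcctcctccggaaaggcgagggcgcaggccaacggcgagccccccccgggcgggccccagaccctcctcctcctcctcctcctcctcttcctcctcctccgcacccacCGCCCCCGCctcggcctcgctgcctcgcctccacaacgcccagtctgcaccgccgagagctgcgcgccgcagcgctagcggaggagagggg
The EGR1 window held 2 CArG boxes, at -105 to -96 and -83 to -74 from the start site, and a CArG box was present in 1.29% of all 35116 windows. The SPRY2 match lay at -41 to -33 on the opposite strand of the window shown, and the other SPRY2 windows held no match. SPRY1 held the same sequence at -28 to -20 in 1 of its 2 windows. GCGGGGGCG was present in 5.07% of all windows, a share that was not matched for GC content. The SPRY2 and SPRY1 windows with the match had 71% and 69.3% GC, against a median of 58.7% over all windows. The palindromic cAMP response element TGACGTCA (1.85% of all windows), the ETS sequence CCGGAAGT (4.14%) and the EGR sequence GCGTGGGCG (0.795%) were found in none of the 11 windows. No matches overlapped. A match describes letters in the window and is no evidence of binding.

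Reads in genes numbered 20767817 and 21061892 in the CBL0137 libraries and 20086664 and 19625517 in the DMSO libraries. Reads outside annotated genes made up 10.3% and 10.2% of counted reads with CBL0137 and 8.52% and 8.82% with DMSO. All 6 Ewing sarcoma markers examined were detected, and their summed level was 807 and 852 CPM with CBL0137 and 1040 and 1042 CPM with DMSO. Among them, NKX2-2 (mean 38.7 CPM with CBL0137, 33.1 with DMSO) and FLI1 (71 and 69.9 CPM) were not lower with CBL0137. The 4 epithelial markers summed to 113 and 114 CPM with CBL0137 and to 51.2 and 52.0 CPM with DMSO. For the 3 fibroblast markers the sums were 1116 and 1110 CPM with CBL0137 and 769 and 755 CPM with DMSO. Most of that difference was COL1A1 (mean 456 CPM with CBL0137, 123 with DMSO), while COL1A2 stood at 641 and 627 CPM. The 3 leukocyte markers summed to 107 and 124 CPM with CBL0137 and to 162 and 162 CPM with DMSO. CDH1 stood at 0 reads in both DMSO libraries, CD3E at 0 in 3 of the 4 libraries, and nearly all of the leukocyte sum was PTPRC. The part of these markers in the results was not tested.

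With CBL0137 these genes moved in both directions. EGR1 rose 3.07-fold and DUSP5 1.99-fold, while SPRY2 fell to 0.339 and SPRED2 to 0.627 of its DMSO level. Of the 8 genes with enough reads to test, 2 rose, 2 fell and 4 were not called (edgeR quasi-likelihood test, adjusted p under 0.05 and fold above 1.5). Over all 17374 genes tested, 18.2% were called higher and 15.1% lower, so 2 of 8 in each direction is near the background. In bulk RNA, fewer cells with a transcript and less of it per cell cannot be told apart. The median log2 fold change of the 8 was 0.15, against 0.01 for all genes tested. An adjusted p under 0.05 at any fold was reached by the same 4 of the 8 genes, against 61.7% of all genes. Scaling by library size alone shifted all genes by a median of 0.16 on the log2 scale. SPRED2 was then under the fold limit (-0.51), and the share of higher genes among all called was 68.8% in place of 54.6%.

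**Figure D1:**
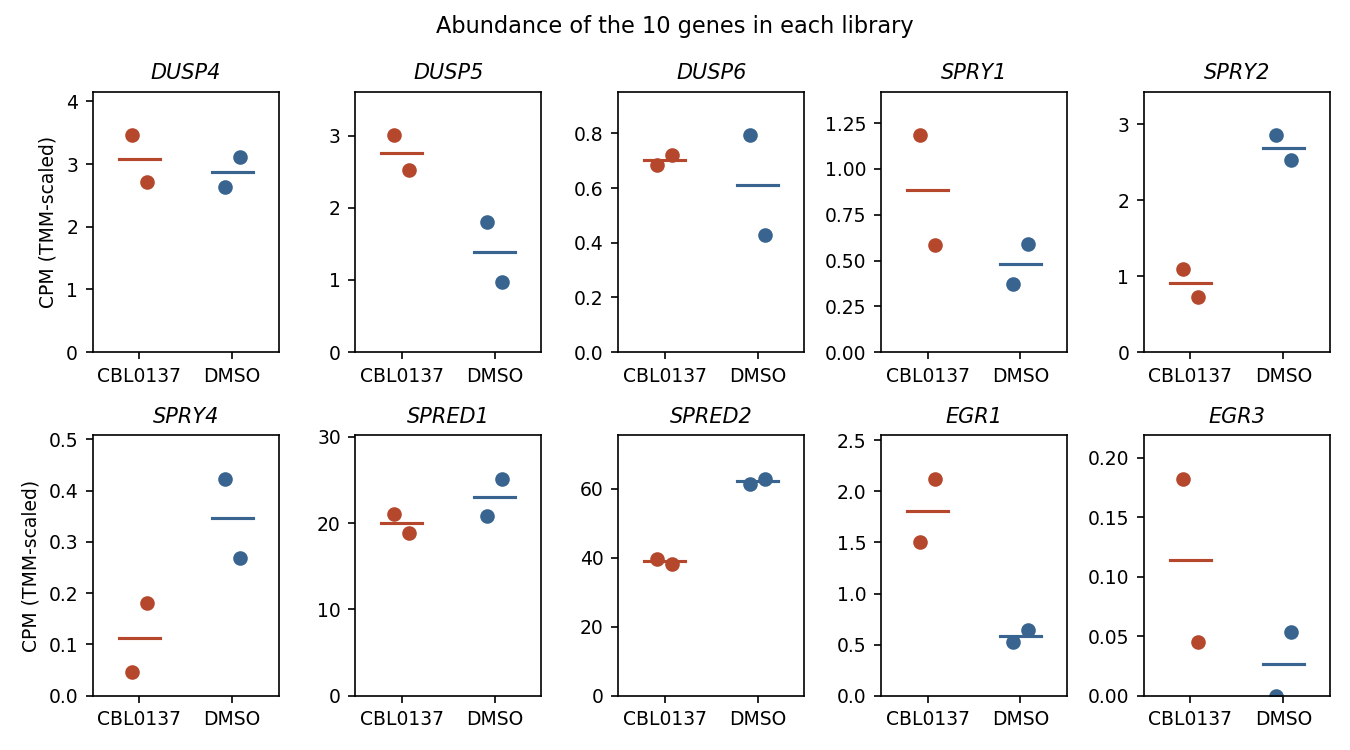
Abundance of each gene in the 2 CBL0137 and the 2 DMSO libraries, in CPM (reads scaled to a common library size with TMM factors; vertical axes start at 0 and differ between panels); points are libraries and lines are group means. The points of EGR1, DUSP5, SPRY2, SPRY4 and SPRED2 do not overlap between the groups, and SPRY4 was too low to test. With 2 libraries against 2, an exact permutation test cannot give a p under 0.333, so such separation alone is weak evidence. The share of all genes that separate in this way was not counted.

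Most of the 10 transcripts were scarce in SKNMC. Only SPRED1 and SPRED2 had more than 100 reads per library. The filter on low counts needed about 10 reads (0.49 CPM) in 2 libraries. EGR1, DUSP4, DUSP5, SPRY2, SPRED1 and SPRED2 reached that level in all 4 libraries. DUSP6 and SPRY1 reached it in both CBL0137 libraries and 1 DMSO library, and SPRY4 and EGR3 in none.

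Among the early growth response genes, EGR1 (ENSG00000120738, GRCh37 chr5:137801168-137804992, plus strand) had 33 and 47 reads in the CBL0137 libraries, against 10 and 12 in the DMSO libraries. Both treated libraries lay well above both vehicle libraries. The level, in CPM (reads scaled to a common library size), was 1.81 ± 0.439 with CBL0137 and 0.587 ± 0.0821 with DMSO (SD, n = 2 each). The log2 fold change was 1.62 (SE 0.43, edgeR adjusted p = 0.0012). The 95% interval of the fold ran from 1.68 to 5.61. EGR1 kept its call in each leave-one-out fit (adjusted p = 0.0497 without CBL0137 replicate 2) and with DESeq2 (adjusted p = 0.0419), but on the log2(FPKM + 1) scale the difference was 0.32, under the fold limit. EGR3 had 4 and 1 reads with CBL0137 and 0 and 1 with DMSO, too few to test. The ratio of its summed counts was 4.25 with an exact 95% interval from 0.476 to 201, which covers counting error only.

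EGR2, the family member that governs Schwann cell myelination and also an early response gene, went the other way. It had 88 and 79 reads with CBL0137 and 137 and 114 with DMSO, and its log2 fold change was -0.82 (SE 0.20, edgeR adjusted p = 0.00037). The direction of EGR2 thus differed from that of EGR1 in the same libraries, each past the test, although the EGR2 call was lost on both FPKM scales. EGR4 had at most 10 reads in any library and was not tested. Of the genes for the EGR corepressors, NAB1 stood at 116 ± 1.42 CPM with CBL0137 and 80.5 ± 6.83 CPM with DMSO, and NAB2 at 79.5 ± 1.07 CPM with CBL0137 and 103 ± 3.65 CPM with DMSO (SD, n = 2 each). Their log2 fold changes of 0.52 (SE 0.06) and -0.38 (SE 0.06) stayed under the fold limit, and kept to that side in 7 and 12 of 13 other settings.

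Among the phosphatase genes, DUSP5 (ENSG00000138166, chr10:112257665-112271291, plus strand) had 66 and 56 reads with CBL0137, against 34 and 18 with DMSO. The groups did not overlap, but the vehicle libraries were far apart. The level was 2.77 ± 0.336 CPM with CBL0137 and 1.38 ± 0.587 CPM with DMSO (SD, n = 2 each). The log2 fold change was 1.00 (SE 0.32, edgeR adjusted p = 0.0068). The call was lost with DESeq2 (adjusted p = 0.123), with no filter on low counts (adjusted p = 0.0886), on both FPKM scales, and without DMSO replicate 2 (log2 fold change 0.60) or CBL0137 replicate 1 (0.86). DUSP5P1, a processed pseudogene of DUSP5, had 68 and 48 reads with CBL0137 and 41 and 46 with DMSO. Reads that aligned to both copies would have been left out of both counts, so the DUSP5 value is uncertain.

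DUSP6 (ENSG00000139318, chr12:89741012-89746278, minus strand), often used as a readout of ERK activity, had 15 and 16 reads with CBL0137 and 15 and 8 with DMSO. The groups overlapped, and the log2 fold change was 0.20 with a 95% interval from -0.84 to 1.23. In folds that interval reached from 0.559 to 2.35, so a change of the size seen for EGR2 or DUSP5 was not detectable at this depth. DUSP4 (ENSG00000120875) had 76 and 60 reads with CBL0137 and 50 and 58 with DMSO. Its log2 fold change was 0.10 (95% interval -0.41 to 0.61), and the sign turned in 2 of the 4 leave-one-out fits.

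Among the Sprouty genes, SPRY2 (ENSG00000136158, chr13:80910111-80915261, minus strand) had 24 and 16 reads with CBL0137, against 54 and 47 with DMSO. Both treated libraries lay below both vehicle libraries. The level was 0.907 ± 0.261 CPM with CBL0137 and 2.69 ± 0.233 CPM with DMSO (SD, n = 2 each). The log2 fold change was -1.56 (SE 0.35, edgeR adjusted p = 0.00014). The 95% interval of the ratio ran from 0.209 to 0.549. SPRY2 kept its call in each alternative except the log2(FPKM + 1) scale, where the difference was -0.48.

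SPRY1 (ENSG00000164056, chr4:124317950-124324915, plus strand) had 26 and 13 reads with CBL0137 and 7 and 11 with DMSO. Scaled to library size the groups overlapped, and the log2 fold change of 0.87 was not called (95% interval -0.19 to 1.94, adjusted p = 0.148). It was 0.28 without CBL0137 replicate 1 and 1.28 without CBL0137 replicate 2, and 0.053 on the log2(FPKM + 1) scale. SPRY4 (ENSG00000187678, chr5:141689992-141706020, minus strand) had 1 and 4 reads with CBL0137 and 8 and 5 with DMSO. The ratio of its summed counts was 0.327, with an exact 95% interval from 0.0913 to 0.978 that covers counting error only. With no filter on low counts its adjusted p was 0.278. SPRY4-AS1, an antisense gene that overlaps SPRY4, had more reads than SPRY4 in every library (7 and 15 with CBL0137, 17 and 17 with DMSO). Whether reads were counted by strand was not given in the sources used here, and reads of the pair cannot be told apart with certainty.

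Among the Spred genes, SPRED2 (ENSG00000198369, chr2:65537985-65659771, minus strand) was the most deeply counted of the 10, with 873 and 847 reads with CBL0137 and 1162 and 1171 with DMSO. The level was 38.99 ± 1.05 CPM with CBL0137 and 62.2 ± 1.05 CPM with DMSO (SD, n = 2 each). Its log2 fold change was -0.67 (SE 0.07, edgeR adjusted p = 4.9e-11). It had the narrowest interval of the 8 tested genes (-0.82 to -0.53), and that interval crossed the fold limit. SPRED1 (ENSG00000166068, chr15:38545037-38649450, plus strand) had 464 and 417 reads with CBL0137 and 394 and 468 with DMSO. Scaled to library size its groups overlapped, at 19.98 ± 1.62 CPM with CBL0137 and 22.99 ± 3.05 CPM with DMSO. Its log2 fold change of -0.20 (95% interval -0.41 to 0.01, adjusted p = 0.0868) was not called, and the upper and lower bounds both lay inside the fold limit.

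**Figure D2:**
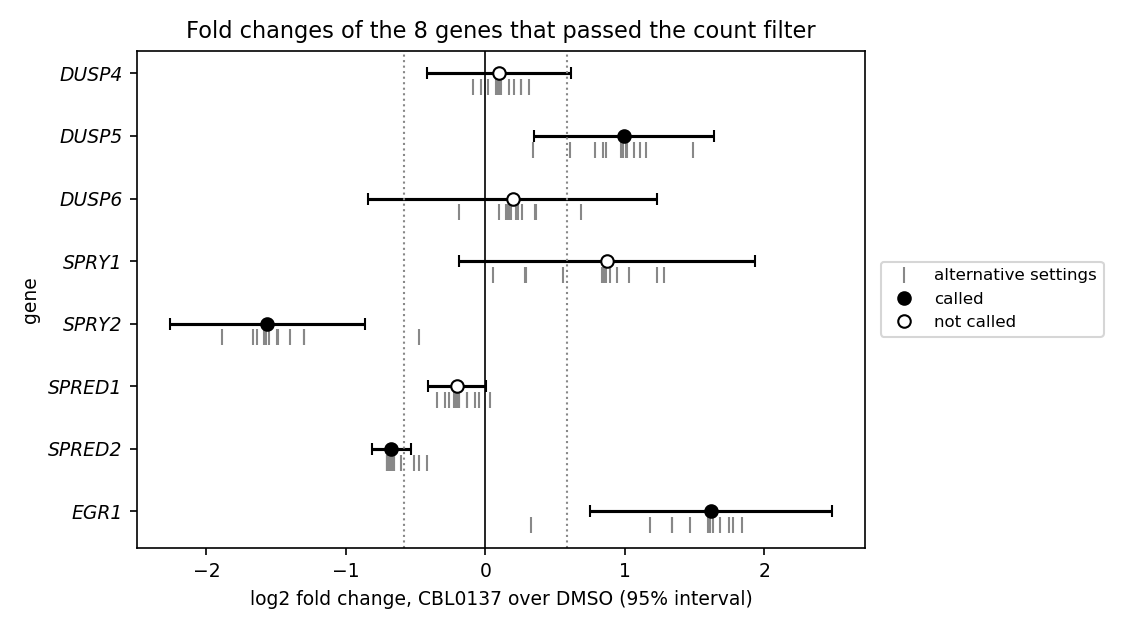
Log2 fold change of the 8 tested genes, CBL0137 over DMSO, with 95% intervals from the edgeR fit; filled points were called, small ticks below each point are the same value under 13 or fewer other settings, and dotted lines mark a fold of 1.5. EGR1 and DUSP5 lie right of 0 and SPRY2 and SPRED2 left of it, and the tick nearest 0 of EGR1 (0.32) and of SPRY2 (-0.48) is the log2(FPKM + 1) scale.

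The relatives of the called Sprouty and Spred genes that lay outside the 10, SPRY3 and SPRED3, were called higher. SPRY3 had 213 and 208 reads with CBL0137 and 96 and 119 with DMSO, and rose by 0.74 on the log2 scale (SE 0.16, edgeR adjusted p = 0.00014). That call was lost without DMSO replicate 1 and on both FPKM scales, and SPRY3 lies in a region shared by chromosomes X and Y, which makes its counts less certain. SPRED3 had 86 and 76 reads with CBL0137 and 29 and 29 with DMSO. It rose by 1.25 on the log2 scale (SE 0.28, edgeR adjusted p = 0.00017), a call that was lost with log2(FPKM + 1). SPRY3, SPRED3 and EGR2 were singled out after their values were seen.

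Compared per length, with the FPKM values (reads scaled to transcript length and depth) that the authors deposited, the Spred genes stood apart from the rest. SPRED2 was listed at 6.52 and 5.94 FPKM with CBL0137 and at 8.69 and 8.64 FPKM with DMSO, and SPRED1 at 2.04 and 1.89 FPKM with CBL0137 and at 2.13 and 2.65 FPKM with DMSO. The other 8 genes were under 1 FPKM in every library. With DMSO the order of the mean level was SPRED2, SPRED1, SPRY2, DUSP5, DUSP4, DUSP6, EGR1, SPRY1, SPRY4 and EGR3. The neighbours DUSP5 and DUSP4, EGR1 and SPRY1, and SPRY1 and SPRY4 overlapped in their 2 libraries.

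With CBL0137 the order was SPRED2, SPRED1, DUSP5, EGR1, DUSP4, DUSP6, SPRY2, SPRY1, SPRY4 and EGR3, so EGR1 had rank 4 with CBL0137 and rank 7 with DMSO, and SPRY2 rank 7 with CBL0137 and rank 3 with DMSO. There the pairs EGR1 and DUSP4, DUSP6 and SPRY2, SPRY1 and SPRY4, and SPRY4 and EGR3 overlapped. The deposited FPKM values are no simple rescaling of the counts. DUSP6, for example, had 15 reads in CBL0137 replicate 1 and in DMSO replicate 1 but was listed at 0.262 FPKM with CBL0137 and 0.176 FPKM with DMSO there, and SPRY4 averaged 0.0445 FPKM with CBL0137 and 0.0450 FPKM with DMSO although its counts differed.

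**Figure D3:**
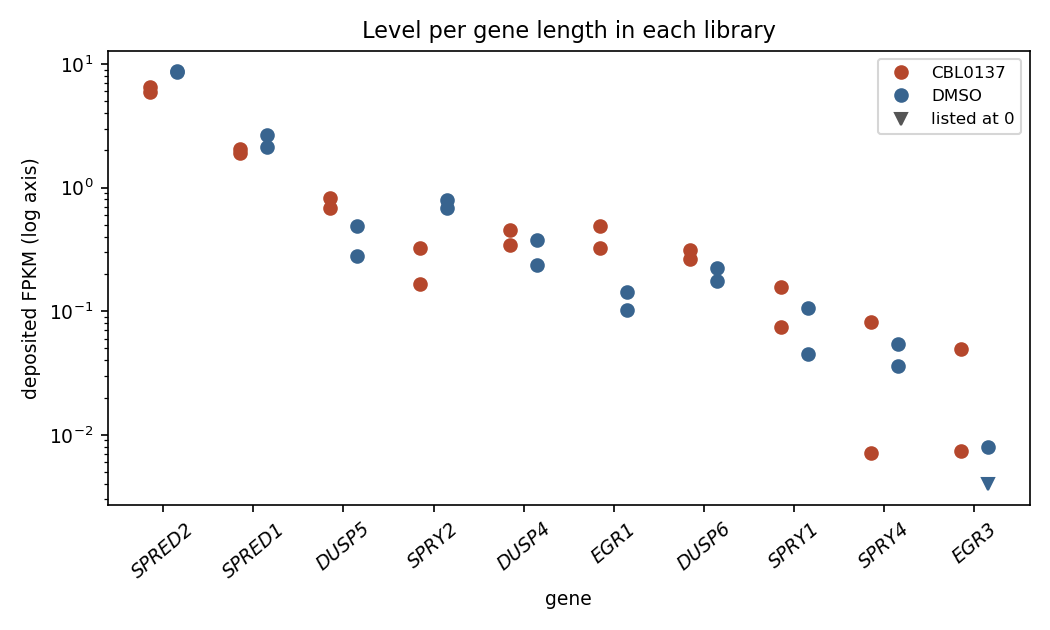
Deposited FPKM of each gene in every library on a log axis, with CBL0137 left of DMSO within each gene and genes in order of their mean; the triangle marks a library in which EGR3 was listed at 0. SPRED2 and SPRED1 lie above 1 FPKM and the other 8 genes below it, with EGR1 higher and SPRY2 lower in both CBL0137 libraries.

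The 2 well expressed genes were also the long ones. SPRED2 and SPRED1 span 121787 and 104414 bases, whereas the other 8 span 3825 (EGR1) to 17621 (DUSP4) bases. The GC content of the longest annotated transcript ran from 36.3% in SPRED1 to 55.8% in DUSP5. A smooth trend of fold change on GC content and span was also fitted over all genes. With that trend removed, EGR1 stood at 1.34, DUSP5 at 0.79, SPRY2 at -1.64 and SPRED2 at -0.70, all still called, and SPRED1 turned to 0.034.

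The rest of the pathway was described with gene lists. The counts of every list are to be read against all genes tested, of which 18.2% were called higher and 15.1% lower. Of 7 other MAPK phosphatase genes 5 were tested, and 0 rose and 0 fell (edgeR; median log2 fold change 0.16). DESeq2 also called 0. At an unadjusted p under 0.05, 0 were lower and 1 was higher, DUSP16, which encodes a phosphatase of JNK and p38 (log2 fold change 0.17, SE 0.07). DUSP9 (0.16, SE 0.09) and DUSP8 (0.19, SE 0.13) were not called. DUSP7, a cytoplasmic ERK phosphatase like DUSP6, was listed at 13.4 and 13.7 FPKM with CBL0137 and at 13.1 and 13.4 FPKM with DMSO. It was thus above all 10 genes in level and did not pass the test (log2 fold change -0.07, SE 0.06).

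Of 13 genes that restrain the pathway at the level of receptors and RAS, 3 rose, 2 fell and 8 were not called (median 0.15). The RAS GTPase-activating protein gene RASA3 rose in each of the 13 other settings too, with 44.7 ± 1.78 CPM with CBL0137 and 17.9 ± 2.02 CPM with DMSO (log2 fold change 1.32, SE 0.09). RASA2, of the same family, fell by 0.62 (SE 0.08), a call kept in 7 of 13 other settings and lost with, among others, library size alone and the GC and span correction (-0.39). SH2B3, the gene of an adaptor that dampens cytokine receptor signals, fell by 0.79 (SE 0.06), a call lost on both FPKM scales.

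The genes of the ERK cascade itself came next. Of 25 genes from the RAS, RAF, MEK and ERK core and its adaptors, 2 rose, 0 fell and 23 were not called (median -0.10), against 18.2% higher and 15.1% lower over all genes tested. DESeq2 gave the same counts for the 25. At any fold, 3 were higher and 11 lower with an adjusted p under 0.05, as with an unadjusted p under 0.05. With both directions pooled, this share is near the 61.7% of all genes with an adjusted p under 0.05. By direction the core leaned lower, whereas over all genes 5347 were higher and 5375 lower at that limit. The adaptor gene SHC1 had 160 ± 3.28 CPM with CBL0137 and 103 ± 1.29 CPM with DMSO (log2 fold change 0.64, SE 0.06, and 0.40 and not called with the GC and span trend removed). RPS6KA1, a ribosomal S6 kinase gene whose product ERK activates, rose by 0.77 (SE 0.09). YWHAB, a 14-3-3 gene, was at -0.51 (SE 0.05), under the fold limit.

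Of 6 further genes widely used as readouts of MAPK pathway activity, 5 were tested, 2 fell, 0 rose and 3 were not called (median -0.39). No member of the list had a positive fold change with an unadjusted p under 0.05, and DESeq2 called 1 lower and 0 higher. The cyclin D1 gene CCND1 had 551 ± 33.3 CPM with CBL0137 and 1151 ± 10.1 CPM with DMSO (log2 fold change -1.06, SE 0.05). ETV5, an ETS factor gene, fell by 0.66 (SE 0.20), a call kept in 6 of 13 other settings. The ephrin receptor gene EPHA2 was at -0.39 (SE 0.08), and at -0.68 and called with the GC and span trend removed.

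Of 30 other early response genes 27 were tested, and 9 rose, 6 fell and 12 were not called (median 0.02). Over all genes tested, 18.2% were called higher and 15.1% lower, and whether the list differs from that was not tested. With the GC and span trend removed the counts turned to 5 higher and 10 lower. The AP-1 gene JUNB had 33.3 ± 0.311 CPM with CBL0137 and 14.3 ± 2.08 CPM with DMSO (log2 fold change 1.22, SE 0.10, and 0.61 and still called with that trend removed). The stress factor gene ATF3 had 35.7 ± 0.894 CPM with CBL0137 and 77.7 ± 3.22 CPM with DMSO (-1.12, SE 0.07), and MYC fell by 0.74 (SE 0.05). Chosen after their values were seen, ZFP36, which encodes an mRNA-destabilizing protein, rose by 1.82 (SE 0.17), and FOS stood at 0.49 (SE 0.10), under the fold limit, as it did in each setting but library size alone (0.65) and FPKM with a pseudocount of 0.1.

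Of 13 genes for serum response factor, its partners and the factors that act with EGR proteins or ETS sites, 1 fell, 0 rose and 12 were not called (median 0.08). At an unadjusted p under 0.05, 5 were higher and 4 lower, DESeq2 called 0 higher and 2 lower, and library size alone gave 4 higher and 1 lower. CREB1 was at -0.57 (SE 0.06) and CIC, a repressor of ETV genes that ERK signalling relieves, at 0.49 (SE 0.05), both under the fold limit, as was NAB1. CREB1 stayed there in 9 of 13 other settings and CIC in 11. The gene that fell was ETS1, with 5 and 6 reads with CBL0137 and 28 and 25 with DMSO (log2 fold change -2.47, SE 0.52). On the FPKM scale its direction turned: ETS1 was listed at 0.0447 and 0.0650 FPKM with CBL0137 and at 0.0350 and 0.0371 FPKM with DMSO, was called on neither FPKM scale and reached 0.18 there. Its direction is therefore uncertain.

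Of 16 receptor tyrosine kinase genes 12 were tested, and 4 rose, 2 fell and 6 were not called (median 0.23). MET had 27.6 ± 2.17 CPM with CBL0137 and 115 ± 2.44 CPM with DMSO (log2 fold change -2.06, SE 0.07). FGFR1, a receptor whose signals reach ERK through FRS2, had 334 ± 19.3 CPM with CBL0137 and 217 ± 2.66 CPM with DMSO (0.63, SE 0.05), a call lost without CBL0137 replicate 1. KIT fell by 0.60 (SE 0.06), a call kept in 8 of 13 other settings and lost with library size alone. EGFR and FGFR2 had 0 reads in all 4 libraries. Some list medians changed sign with the setting. That of the cascade core was 0.055 with library size alone, 0.0048 with log2(FPKM + 1) and 0.0049 with log2(FPKM + 0.1). With the GC and span trend removed it was 0.0035 for the core, -0.31 for the MAPK phosphatases, -0.20 for the early response genes and -0.049 for the receptors, and that of the early response genes was -0.048 without CBL0137 replicate 1.

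**Figure D4:**
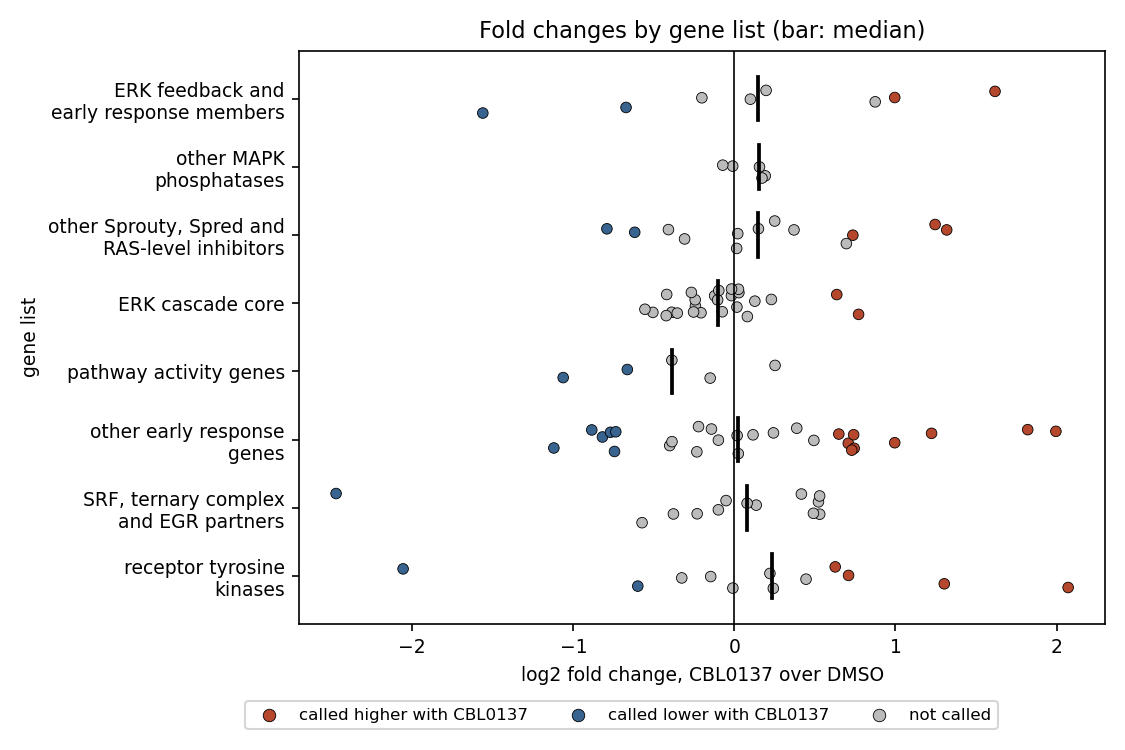
Log2 fold change of every tested gene of the 10 and of the other 7 lists, CBL0137 over DMSO; each point is a gene, colour shows the call and the black bar is the median of the list. The medians run from -0.39 for the pathway activity genes to 0.23 for the receptor tyrosine kinases, and calls in both directions are seen among the 10 genes, the other inhibitors, the early response genes and the receptors.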

How the data were processed

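Sample titles gave each library's group and number. The authors' deposited table holds raw counts of reads per gene and FPKM values. According to the series' design text, the authors used Trim Galore for trimming, HISAT2 for alignment to hg19, HTSeq 0.11.1 for counting and DESeq2 1.26.0 for testing, and derived FPKM from read number, gene length and depth. The submitters' processing notes also name mm10. The FPKM tool, annotation release and strand handling were not given in the sources used here. Entries that name no gene (6) were left out of library sizes and tests. They held reads outside genes, reads in overlapping genes (8.75% to 9.34% of counted reads) and reads aligned to several places (6.91% to 7.13%). Positions are from GENCODE release 44 mapped to GRCh37, the build of hg19, which matched 58524 of 60617 entries. The endothelial marker PECAM1 matched none; VWF and CDH5 summed to 2.91 and 3.57 CPM with CBL0137 and to 1.85 and 1.83 CPM with DMSO.

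Counts were fitted over the whole table with edgeR 4.0.16 (TMM, filterByExpr, quasi-likelihood F test) in R 4.3.3, with Benjamini-Hochberg adjustment over 17374 genes. A gene was called at an adjusted p under 0.05 and a fold above 1.5, the limits in the design text. SE was derived from the log2 fold change and F. CPM values are shares of RNA and hide any change in total RNA. Replicates differed by more than sampling noise (chi-square per gene 2.68 for CBL0137 and 2.95 for DMSO) and were kept apart. The fit was tested on simulated data in which every gene had the same spread beyond sampling noise. That test is therefore no check of the calls made from few reads. Alternatives were DESeq2 1.42.0, limma 3.58.1 on log2(FPKM + 1) and log2(FPKM + 0.1), 2 other scalings, 2 other filters, 2 other thresholds, a replicate block, removal of a smooth trend on GC content and span, and leaving out each library. All 10 genes are named, with the 3 tested genes of smallest p in each list. Other names were chosen after their values were seen. The genes and lists were chosen with earlier results of these data known.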

Additional observations from a re-analysis of the deposited data

How the results depend on the processing

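EGR1 and SPRY2 kept their calls except on the log2(FPKM + 1) scale (0.32 and -0.48), where the added 1 draws the differences of such low genes toward 0. SPRED2 stayed below 0 in each setting run but missed the fold limit with library size alone (-0.51), with log2(FPKM + 1) (-0.42) and with log2(FPKM + 0.1) (-0.47). DUSP5 lost its call with no filter on low counts (0.97), with DESeq2 (0.99), with log2(FPKM + 1) (0.34) and with log2(FPKM + 0.1) (0.85), and ran from 0.60 to 1.49 with 1 library left out. The uncalled genes DUSP4 (-0.089 to 0.26) and DUSP6 (-0.19 to 0.68) changed sign with 1 library left out, and SPRED1 did so with the GC and span trend removed (0.034). The cause was not tested. Higher and lower calls among the 10 were 1 and 2 with DESeq2 or no filter, 1 and 1 with log2(FPKM + 0.1) or a fold above 2, 0 and 0 with log2(FPKM + 1), 2 and 1 with library size alone, and 1 to 2 higher with 1 library left out. A fit on 3 libraries assumes that the lone library varies like the others. SPRY4 and EGR3 were tested only with no filter and with DESeq2, and passed in neither.

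Over all genes 3166 were higher and 2632 lower, against 1860 and 1363 with log2(FPKM + 1), 5347 and 5375 with no fold limit, and 1988 and 1218 with a fold above 2. The list counts moved as follows, higher before lower. With no fold limit they were 1 and 0 for the phosphatases, 5 and 4 for the other inhibitors, 3 and 11 for the cascade core, 0 and 4 for the activity genes, 5 and 4 for the serum response factor list and 7 and 4 for the receptors. With a fold above 2 they were 2 and 0 for the other inhibitors, 0 and 0 for the core, 0 and 1 for the activity genes, 3 and 1 for the early response genes and 2 and 1 for the receptors. With log2(FPKM + 1) they were 2 and 0 for the other inhibitors, 0 and 1 for the activity genes, 6 and 3 for the early response genes, 3 and 0 for the serum response factor list and 1 and 2 for the receptors. With log2(FPKM + 0.1) they were 3 and 0, 0 and 1, 9 and 5, 5 and 0 and 3 and 2 for the same lists, and 2 and 1 for the core. With the GC and span trend removed they were 3 and 1 for the other inhibitors, 1 and 2 for the core, 5 and 10 for the early response genes, 2 and 2 for the serum response factor list and 3 and 1 for the receptors. Library size alone gave 3 and 1 for the other inhibitors, 0 and 1 for the activity genes, 4 and 1 for the serum response factor list and 5 and 1 for the receptors, and upper-quartile factors gave 3 and 1, 0 and 2, 3 and 1 and 4 and 1. DESeq2 and no filter each gave 1 lower activity gene and 2 lower genes of the serum response factor list. For the early response genes, DESeq2 gave 7 and 6, and no fold limit gave 12 and 8. With 1 library left out, lower calls ran from 1 to 2 for the other inhibitors, the activity genes, the serum response factor list and the receptors and from 0 to 1 for the core, and higher calls from 0 to 1 for the serum response factor list.

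With the replicate block, 2 of the 10 genes were higher and 2 lower, with EGR1 at 1.61, DUSP5 at 1.02, SPRY2 at -1.57 and SPRED2 at -0.67, and 3129 genes were higher and 2612 lower in all. No label says that the numbers pair the libraries, and the differences between replicates 1 and 2 of the 2 groups had a correlation of 0.0196 across genes. Depth limits EGR1, DUSP5, DUSP6, SPRY1, SPRY2, SPRY4 and EGR3, each with fewer than 70 reads in every library.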
